A study of Mus musculus with 3 samples.

Results

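The 10 redox genes described here are Txn1 and its reductase gene Txnrd1, the peroxiredoxin genes Prdx1 to Prdx6, the superoxide dismutase gene Sod1 and the glutathione peroxidase gene Gpx1. They were found by gene name among the mouse genes of 2-colour arrays, and they account for 10 of 27745 gene names and 18 of 41174 probes. The arrays carried RNA of cultured lymph node stromal cells from BALB/c mice. Cells were transfected with 400 pmol of either an siRNA against Eif4g3, which encodes the translation initiation scaffold eIF4GII, or a control siRNA, and were harvested after 48 h. The cells of 7 plates per siRNA were pooled before lysis and spun through a sucrose gradient of 10% to 60%, whose fractions were combined into a top fraction (free and lightly loaded mRNA), light polysomes (few ribosomes) and heavy polysomes (many ribosomes). Each of these 3 fractions was compared on 1 array, with the Eif4g3 siRNA RNA in Cy5 (red) and the control siRNA RNA in Cy3 (green). Without a dye swap, the dyes and the siRNAs cannot be told apart, and with 1 array per fraction neither can array and fraction, so no p-value was computed, and the error beside each value is the scanner software's error for the spot.

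Thioredoxin is a small protein that reduces disulfide bonds in other proteins and is itself kept reduced by thioredoxin reductase at the expense of NADPH. Peroxiredoxins are abundant peroxidases that remove hydrogen peroxide through a reactive cysteine, and most of them are returned to their active form by thioredoxin. Superoxide dismutase makes hydrogen peroxide from superoxide, and glutathione peroxidase removes peroxides with glutathione in place of thioredoxin. Many of these genes are induced by the transcription factor Nrf2 under oxidative stress.

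A gene was counted as measured when a probe was well above background in both channels, which held for all 10 redox genes on all 3 arrays. Of all genes, 10942 were measured in the top fraction, 14094 in light and 14404 in heavy polysomes. The upper quartile of the signal above background was 40.5 (control) and 39.6 (siRNA) on the top array, 288 and 686 on the light array, and 1078 and 367 on the heavy array, so the top array was the least bright. Ratios were therefore normalized within each array, which sets the typical gene near 0 and hides any shift common to all mRNAs. The siRNA target Eif4g3 had log2 ratios of siRNA over control of -0.43 ± 0.16 (top), -1.06 ± 0.16 (light) and -1.77 ± 0.19 (heavy). The top value depended on the processing. It was -0.73 with an offset of 0 in the background step and -0.80 with the software's ratio. Of 11 fibroblastic stroma markers on the arrays, 9 or 10 were measured in each fraction, whereas 0 to 2 of 5 endothelial, 0 to 3 of 7 leukocyte and 0 to 1 of 3 epithelial markers were. The leukocyte marker Ptprc and the endothelial markers Pecam1 and Cdh5 were not well above background on any array. The summed scaled signal of the leukocyte markers was 535 to 597 in all 6 channels, that of the endothelial markers 339 to 385 and that of the epithelial markers 206 to 253. The sum of the fibroblastic stroma markers was 89996 in control and 82105 in siRNA RNA on the top array, 190355 and 216507 on the light and 255262 and 199519 on the heavy array. The median log2 ratio of the measured stroma markers was -0.10, 0.03 and -0.27, and the part of these markers and of other cells in the ratios below was not tested.

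In the top fraction, most peroxiredoxin mRNAs and the thioredoxin mRNA were lower after Eif4g3 siRNA, whereas Txnrd1 mRNA was higher. In light polysomes their median lay near the typical gene, with Txnrd1 well above it, and in heavy polysomes they spread to both sides of it. Their median log2 ratio was -0.40 (top), 0.01 (light) and 0.06 (heavy), where the median of all measured genes was 0.00, 0.02 and -0.01. The light median depended on the loess step and was 0.35 without it, against -0.01 for all genes. In the top fraction 8 of 10 were below 0, against 49.6% of all measured genes. The genes were chosen by name with the siRNA over control ratios of these 3 arrays known, so the ratios and counts describe them and test nothing.

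**Figure D1:**
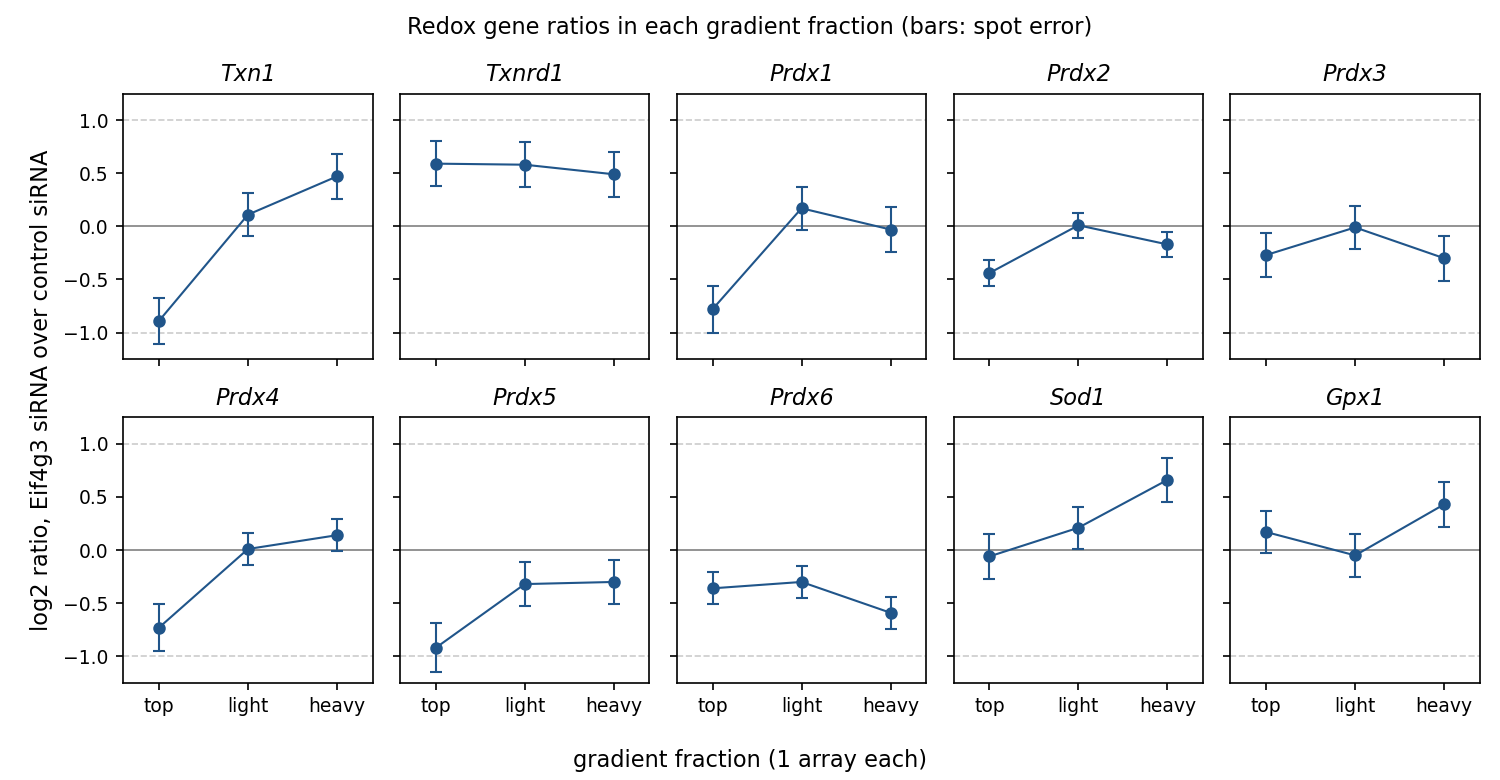
Log2 siRNA ratio, Eif4g3 over control (vertical axis), for each redox gene in the top, light and heavy fraction (horizontal axis). Points are 1 array each, bars are the spot error, and dashed lines mark 2-fold. Txn1, Prdx1, Prdx4 and Prdx5 start low in the top fraction, Txnrd1 stays at 0.49 to 0.59, and Prdx6 is below 0 in all 3 fractions.

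Txn1, the cytosolic thioredoxin, had the widest change along the gradient. Its probe lies on the minus strand at chr4:58037859-58037918 (mm8). The raw spot signal in the top fraction was 5432 in control and 3052 in Eif4g3 siRNA RNA. In the light fraction the signals were 22168 and 65430, and in the heavy fraction 66024 and 40398, where the whole siRNA channel was brighter on the light and dimmer on the heavy array. After normalization the log2 ratio of Txn1 was -0.89 ± 0.22 in the top fraction, 0.11 ± 0.20 in light polysomes and 0.47 ± 0.21 in heavy polysomes. Txn1 mRNA was thus lower in the top fraction and higher in heavy polysomes, each by more than its spot error. It was the gene at position 49 from the lowest of 10942 in the top fraction and at position 887 from the highest of 14404 in the heavy fraction. The light minus top difference of the log2 ratio was 1.0 ± 0.30, and the heavy minus light difference was 0.36 ± 0.29. Without loess the light value was 0.54 and the heavy value 0.47, so the rise from light to heavy polysomes was then lost.

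Txnrd1, the cytosolic reductase that recycles thioredoxin, had ratios that differed by less than the spot error between fractions. Its log2 ratio was 0.59 ± 0.21 (top), 0.58 ± 0.21 (light) and 0.49 ± 0.21 (heavy), from a probe on the plus strand at chr10:82327284-82327343 (mm8). Without loess the light value was 1.05, against 0.57 in the top and 0.54 in the heavy fraction, so the light value then stood apart. The raw signals behind these values were 8215 in control and 12891 in siRNA RNA in the top fraction, 30403 and 128027 in light polysomes, and 107880 and 69087 in heavy polysomes. Txnrd1 was above the other 9 redox genes in the top and light fractions, by 0.42 over Gpx1 and by 0.37 over Sod1, with a combined spot error of 0.29 in both. Thioredoxin and its reductase thus differed most in the top fraction, where Txn1 was lower and Txnrd1 higher than the typical gene.

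The peroxiredoxins that form disulfide-linked pairs during their reaction are Prdx1 and Prdx2 of the cytosol, Prdx3 of mitochondria and Prdx4 of the endoplasmic reticulum. The log2 ratio of Prdx1 was -0.78 ± 0.22 (top), 0.17 ± 0.20 (light) and -0.03 ± 0.21 (heavy), with raw signals in the top fraction of 1508 in control and 918 in siRNA RNA. Its probe covers chr4:116190905-116191675 on the plus strand (mm8), a stretch of 771 bases in place of 60, as a probe over a splice junction does. Prdx1 was low in the top fraction and within its spot error of 0 in both polysome fractions. This did not hold under all settings, since its light value was 0.58 without loess and its heavy value -0.26 with the software's ratio. Prdx4 had -0.73 ± 0.22 in the top fraction from 1 measured probe, with raw signals of 599 in control and 375 in siRNA RNA. On the other 2 arrays its 2 measured probes gave a mean of 0.01 ± 0.15 and 0.14 ± 0.15. The probe measured on all arrays gave -0.14 in light and 0.00 in heavy polysomes. The other probe gave 0.17 and 0.28. It was dim, with raw signals of 183 in control and 444 in siRNA RNA (light), and 264 and 152 (heavy). Over the 3 fractions Prdx1 and Prdx4 were 0.23 apart in log2 ratio (Euclidean distance), and only Prdx2 and Prdx3 were closer among the pairs of redox genes, at 0.22. These distances carry no error, and single ratios had spot errors of up to 0.22, so the order of the 2 pairs was not settled.

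Prdx2 and Prdx3 stood nearer to the typical gene than Prdx1 and Prdx4 in the top fraction, but not in heavy polysomes. Prdx2, with 3 measured probes, had -0.44 ± 0.12 (top), 0.01 ± 0.12 (light) and -0.17 ± 0.12 (heavy). Its 3 probes gave -0.49, -0.41 and -0.42 in the top fraction, so that probes at different genome positions were alike there. Apart from the first, their raw signals there were only 141 to 178. With the software's ratio the 3 values were -0.50, -0.53 and -0.63. They ran from -0.26 to 0.20 in light and from -0.34 to -0.05 in heavy polysomes, a spread as large as the values. Its probe at chr8:87864269-87864328 (mm8, plus strand) was spotted 10 times on each array, which gives an error within the array. The log2 ratio of its spots without outlier marks had an SD of 0.037 over 7 spots (top), 0.061 over 9 spots (light) and 0.091 over 9 spots (heavy). The 7 spots of the top fraction ran from -0.53 to -0.41, all below 0. Prdx3 had -0.27 ± 0.21, -0.01 ± 0.20 and -0.30 ± 0.21 in the top, light and heavy fraction, from 1 probe.

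Prdx5, which is found in mitochondria, peroxisomes and the cytosol and forms its disulfide within the same molecule, had the lowest ratio of the redox genes in the top fraction. The value was -0.92 ± 0.23 there, with raw signals of 548 in control and 292 in siRNA RNA, then -0.32 ± 0.21 in light and -0.30 ± 0.21 in heavy polysomes. It was thus below 0 by more than its spot error on all 3 arrays, except that the light value was -0.04 without loess, and lowest in the top fraction, at position 42 of 10942 genes. Prdx6, which has only 1 reactive cysteine and relies on glutathione rather than thioredoxin, was also below 0 on all 3 arrays, at -0.36 ± 0.15, -0.30 ± 0.15 and -0.59 ± 0.15. Its lowest value was in heavy polysomes, but with the software's ratio it was -0.63, -0.60 and -0.51, least low there. Its 2 probes measured there gave -0.68 at chr1:163077880-163077939 and -0.50 at chr1:163083948-163084007 (mm8, minus strand), with raw signals of 71497 and 8261 in control and 19362 and 2249 in siRNA RNA. Its 3 probes measured in light polysomes ran from -0.55 to -0.03.

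Sod1, the copper and zinc superoxide dismutase of the cytosol, had the highest ratio of the redox genes in heavy polysomes. Its log2 ratio was -0.06 ± 0.21 (top), 0.21 ± 0.20 (light) and 0.66 ± 0.21 (heavy), with heavy raw signals of 117230 in control and 85135 in siRNA RNA. The value rests on the probe at chr16:90115111-90115170 (mm8, plus strand). The other 2 Sod1 probes, at chr16:90111887-90111946 and chr16:90112795-90112854, had raw signals of 31.8 to 46.3 and were not well above background on any array. Gpx1, the main cytosolic glutathione peroxidase and like Txnrd1 a selenocysteine protein, had 0.17 ± 0.20, -0.05 ± 0.20 and 0.43 ± 0.21. Sod1, Txnrd1, Txn1 and Gpx1 formed the upper group in heavy polysomes, from 0.43 to 0.66. The gap of 0.29 between Gpx1 and the next gene, Prdx4, was larger than the combined spot error of 0.25. With the software's ratio this gap was lost, since Prdx4 was at 0.29 and Txn1 at 0.28, and with subtraction Prdx4 was at 0.24 and Gpx1 at 0.42.

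Set in order of the top ratio, Prdx5, Txn1, Prdx1 and Prdx4 formed a lower group from -0.92 to -0.73, whose neighbours did not differ beyond their spot errors. A gap of 0.28 to Prdx2 followed, against a combined spot error of 0.25. With an offset of 0 in the background step Prdx4 was at -0.80 and Prdx2 at -0.56, and without the background filter Prdx4, at -0.41, lay above Prdx2, at -0.44. Prdx2, Prdx6, Prdx3, Sod1 and Gpx1 then followed without such a gap, from -0.44 to 0.17. On the light array Txnrd1 alone stood apart from its neighbour, and the other 9 genes formed a series from -0.32 to 0.21.

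**Figure D2:**
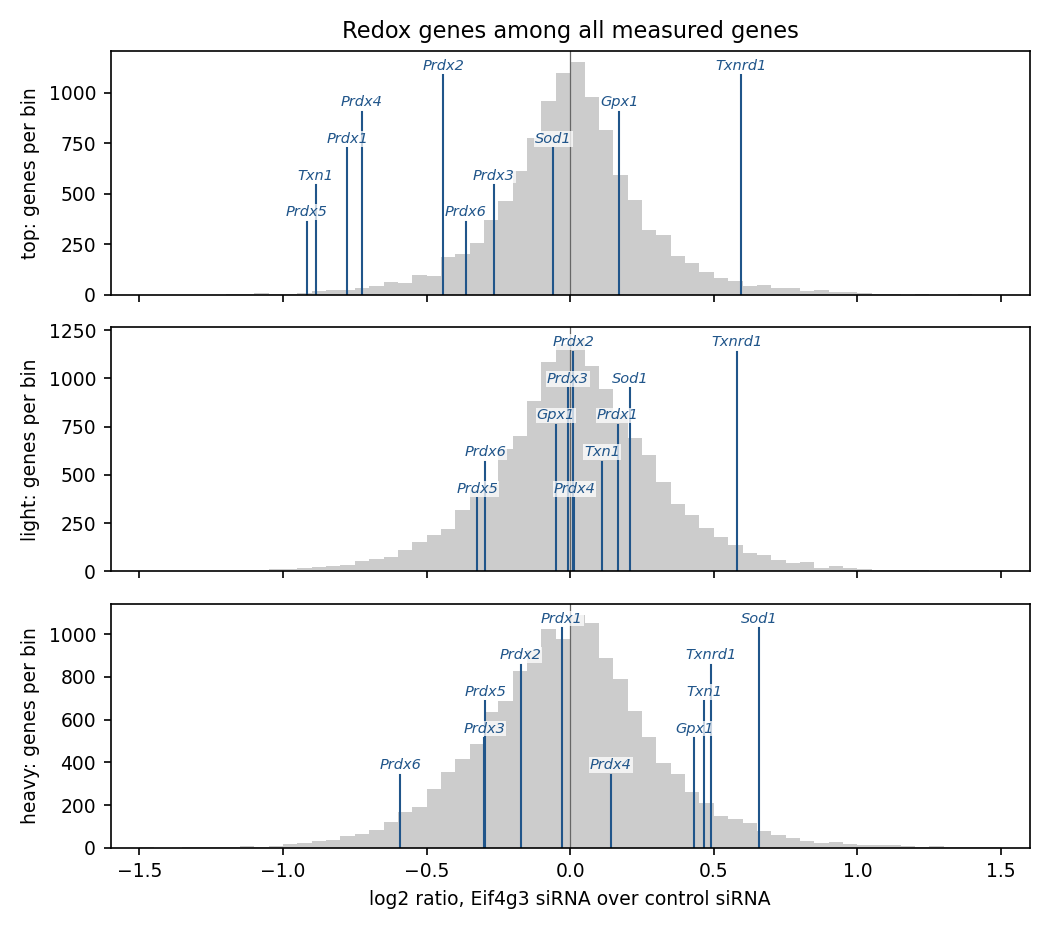
Distribution of the log2 ratio over all measured genes (grey, genes per bin of the vertical axis) in the top, light and heavy fraction, with a line for each redox gene; line heights only separate the names. In the top panel Prdx5, Txn1, Prdx1 and Prdx4 lie in the lower tail, in the light panel 9 of 10 genes lie between -0.32 and 0.21, and in the heavy panel Sod1 is the rightmost.

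Counted at a fold, 0 of 10 redox genes were past 2-fold in either direction on any array. The share of all measured genes past 2-fold was 0.43% higher and 0.265% lower in the top fraction, 0.397% and 0.291% in light polysomes, and 0.507% and 0.305% in heavy polysomes, so that 0 of 10 is near this background. Under 3 of 8 other processing settings Prdx5 was past 2-fold lower in the top fraction, at up to -1.07. The share of all genes lower past 2-fold was then 0.749%, 1.08% and 1.33%. Prdx5 stayed at -0.92 without loess, and the remaining settings cannot move its 1 measured probe with 1 spot. Without loess Txnrd1 was past 2-fold higher in light polysomes, where 1.06% of all genes then were. Past 1.5-fold (a log2 ratio of 0.585) in the top fraction were 4 genes lower (Prdx5, Txn1, Prdx1 and Prdx4), where 2.52% of all genes were, and 1 gene higher (Txnrd1), where 2.76% were. In heavy polysomes Sod1 was past 1.5-fold higher, where 3.52% of genes were, and Prdx6 lower, where 3.71% were. In the light fraction 0 of 10 passed it in either direction, where 3.48% of genes were higher and 2.63% lower. The top count of 4 became 5 with the software's ratio and 3 without the background filter and was 4 under the other 6 settings. The share of all genes was then 8.5% with the software's ratio, 0.793% without the background filter and 2.52% to 6.88% under the others. The higher call of Txnrd1 ended under 4 of the 8 settings, at 0.50 to 0.57. The remaining settings left it at 0.59, as they cannot move 1 measured probe with 1 spot. The calls of Sod1 and Prdx6 in heavy polysomes both ended with the software's ratio and without the background filter.

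Subtracting the top from the heavy ratio asks whether an mRNA lay deeper in the gradient, relative to other mRNAs, after Eif4g3 siRNA. Txn1 had a difference of 1.35 ± 0.30, the 10th highest of 10721 genes. It was the only redox gene past 2-fold, where 0.811% of all genes were higher and 0.7% lower past that fold. Txn1 kept 1.18 to 1.38 over all settings, though those on probe choice, filter and outlier spots cannot move its 1 measured probe with 1 spot. The share of all genes higher past 2-fold ran from 0.278% without the background filter to 2.81% with the software's ratio. Its position among all genes was not computed under the other settings. Prdx1 (0.75 ± 0.30), Prdx4 (0.73 ± 0.30), Sod1 (0.72 ± 0.29) and Prdx5 (0.62 ± 0.31) were also past 1.5-fold, which makes 5 of 10 higher and 0 lower, where 7.37% of genes were higher and 6.03% lower. Each of these 4 calls ended under 1 setting, that of Prdx1 with the software's ratio (0.57), those of Prdx4 (0.55) and Sod1 (0.31) without the background filter, and that of Prdx5 without loess (0.50). Sod1 differed from the other 4 in how its value arose, since its top ratio was near 0 and its heavy ratio high. With the software's ratio this was less so, at -0.33 in the top and 0.44 in the heavy fraction. For Prdx1, Prdx4 and Prdx5 the heavy ratio was near or below 0 and the top ratio low, and for Txn1 the top ratio was low and the heavy ratio high. Prdx2 had 0.27 ± 0.17 and Gpx1 0.26 ± 0.29, while Prdx3 (-0.03 ± 0.29), Txnrd1 (-0.11 ± 0.29) and Prdx6 (-0.23 ± 0.21) were at or below 0. The median of the 10 genes was 0.45, and that of all 10721 genes was 0.00. The gap between Txn1 and the next gene, Prdx1, was 0.61, with a combined spot error of 0.42.

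**Figure D3:**
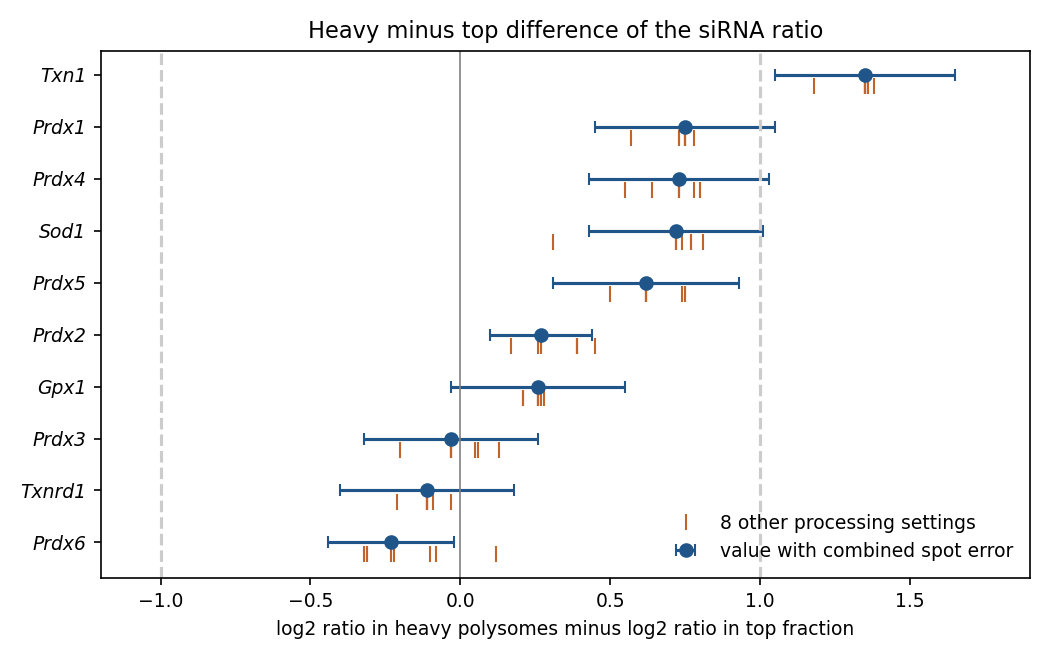
Heavy minus top difference of the log2 siRNA ratio (horizontal axis) for each redox gene (vertical axis). Blue points carry the combined spot error of the 2 arrays, orange ticks are the 8 other processing settings, and dashed lines mark 2-fold. All ticks of Txn1 lie above 1, while ticks of Prdx3 and Prdx6 fall on both sides of 0.

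The control channel shows where these mRNAs lay in the gradient of control cells. The values are log2 signals after scaling between arrays, relative to each array's signal distribution. Prdx1 had far more signal in heavy polysomes than in the top fraction of control cells, with a log2 heavy over top signal of 2.25 that exceeded 98.3% of 10721 genes. Prdx3 (1.33), Prdx2 (1.31), Txnrd1 (1.30), Prdx4 (1.13), Prdx6 (0.93), Prdx5 (0.70), Sod1 (0.52) and Txn1 (0.34) were also above the median of all genes, which was -0.07. Gpx1 was the exception, at -0.83 for heavy over top. In control cells its signal was highest in the light fraction, with a light over top value of 1.17 above 95.8% of genes and a heavy over light value of -2.00 above only 0.519% of genes. After Eif4g3 siRNA the heavy over top signal of Txn1 was 1.70 in place of 0.34, and that of Prdx1 was 3.00 in place of 2.25. For Gpx1 it was -0.57 in place of -0.83, so Gpx1 remained the gene with the least heavy signal relative to top. The siRNA and control values differ by the heavy minus top difference above and are no separate evidence for it.

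**Figure D4:**
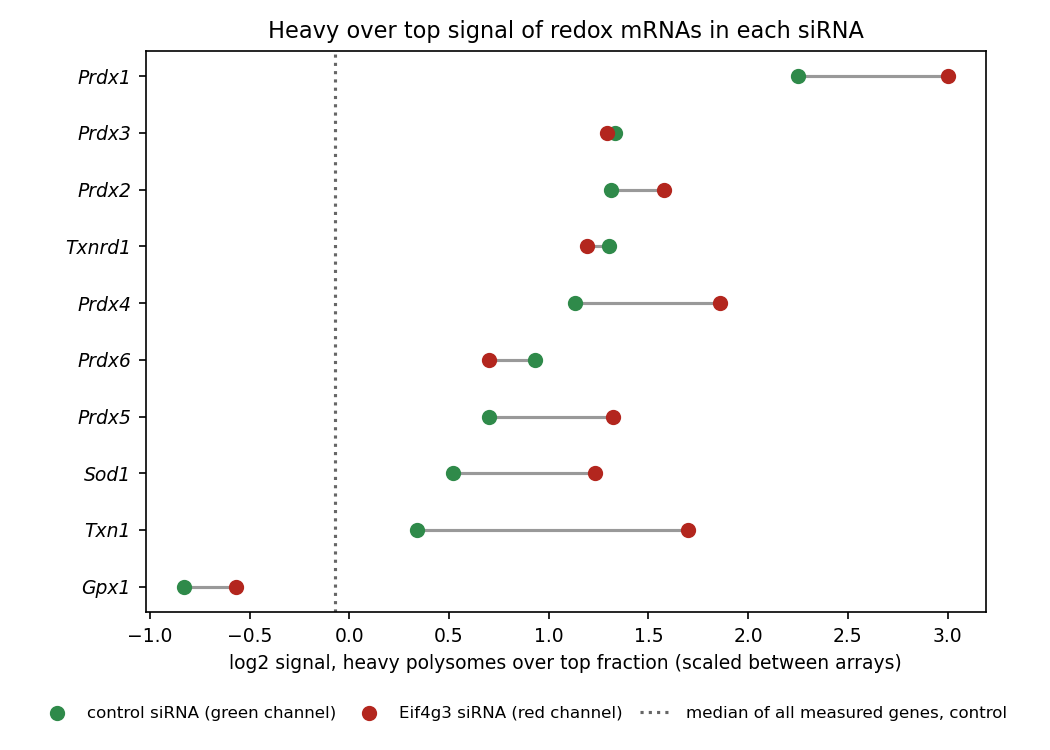
Log2 signal of heavy polysomes over the top fraction (horizontal axis, scaled between arrays) for each redox gene (vertical axis) in control siRNA (green) and Eif4g3 siRNA (red) RNA, 1 array pair each. The dotted line is the median of all measured genes in control cells, -0.07. Txn1 has the longest line, from 0.34 to 1.70, and Gpx1 lies left of the median in both.

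The genes whose ratios over the 3 fractions were most like those of Txn1, by Euclidean distance among 3830 named genes of at least median signal, were Cklf, Mgp, Ndufb6, Rpa3 and Tmco1. Cklf, a chemokine-like factor, was at a distance of 0.061, with -0.94, 0.14 and 0.46 in the top, light and heavy fraction. The matrix protein gene Mgp was at 0.197, as was Ndufb6, a subunit of respiratory complex I. Rpa3, of the single-strand DNA binding complex, was at 0.204 and Tmco1, a membrane protein gene, at 0.214. All 5 were low in the top fraction, from -0.94 to -0.72, and above 0 in the others. The distances carry no error, and the spot error of Txn1 was 0.20 to 0.22 per fraction, so the order of the 5 was not settled.

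Of 48 related redox gene names, 43 were on the arrays and 40 were measured in the top fraction. Their median log2 ratio was -0.10 (top), -0.02 (light) and -0.12 (heavy). Past 1.5-fold in the top fraction were 4 lower and 0 higher, against 2.52% and 2.76% of all genes. For heavy minus top the median of the related genes was 0.02, with 5 higher and 6 lower past 1.5-fold of 40, against 7.37% and 6.03% of all genes. In that difference the related genes thus held members on both sides.

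In the thioredoxin system, Txnip, the protein that binds and inhibits thioredoxin, had the lowest heavy minus top difference at -0.48 ± 0.24, and a heavy ratio of -0.42 ± 0.15. Txnrd2, the mitochondrial reductase, had the highest at 0.94 ± 0.30 from the 1 probe measured on both arrays, though its 3 probes in the heavy fraction ran from -0.16 to 0.77. In the glutathione group, Mgst1, a membrane-bound glutathione transferase, was the highest at 0.81 ± 0.23, with a top ratio of -0.92 ± 0.18. Gss, the glutathione synthetase gene, was the lowest at -0.66 ± 0.29. Sod2, the mitochondrial superoxide dismutase, had -0.59 ± 0.21 in the top and 0.37 ± 0.20 in the heavy fraction, a difference of 0.96 ± 0.29. Cat, the peroxisomal catalase, had 1.11 ± 0.23 in the light fraction, which is past 2-fold, against -0.03 ± 0.38 in the top and -0.64 ± 0.21 in the heavy fraction, all from 1 probe. Of the Nrf2 group, Msrb2, a methionine sulfoxide reductase gene, was the highest for heavy minus top at 0.55 ± 0.30. G6pdx, the enzyme that makes NADPH in the first step of the pentose phosphate pathway, was the lowest at -0.87 ± 0.30, with a heavy ratio of -0.99 ± 0.22. The NADPH-making Pgd of the same pathway, chosen after its values were seen, had -0.57 ± 0.15 in the heavy fraction. Its probes there were apart, at -0.84 and -0.29. Of the other selenocysteine proteins in these lists, the top ratio was 0.17 for Gpx1, 0.11 for Txnrd3, 0.01 for Gpx3, -0.11 for Sepx1, -0.16 for Txnrd2 and -0.28 for Gpx4, all below the 0.59 of Txnrd1.

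The promoters were searched for the core of the antioxidant response element, the site that Nrf2 binds, written TGACNNNGC, on both strands of the 250 bases before each annotated start (RefSeq, GRCm38.p6). Of the 10 genes, 9 had a promoter entry, with 11 starts in all, and a match lay before 3 of these starts, in Txnrd1, Prdx1 and Sod1. Of all 32851 starts 10.2% had a match, and of 27025 genes 11.5% had one. The promoters of Prdx1 and Txn1 are shown because the first has a match and the second, the gene with the largest heavy minus top difference, has none; capitals mark the match, which reads on the opposite strand of Prdx1 as TGACTCAGC. The Prdx1 window is chr4:116685349-116685598 on the plus strand, and its match begins 133 bases before the start. The Txn1 window is chr4:57956412-57956661 on the minus strand.
Prdx1: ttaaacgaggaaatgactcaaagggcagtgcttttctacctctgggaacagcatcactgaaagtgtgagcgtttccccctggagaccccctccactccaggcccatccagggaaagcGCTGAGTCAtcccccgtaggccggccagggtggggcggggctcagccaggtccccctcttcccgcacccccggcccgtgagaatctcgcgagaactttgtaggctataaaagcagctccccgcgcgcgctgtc
Txn1: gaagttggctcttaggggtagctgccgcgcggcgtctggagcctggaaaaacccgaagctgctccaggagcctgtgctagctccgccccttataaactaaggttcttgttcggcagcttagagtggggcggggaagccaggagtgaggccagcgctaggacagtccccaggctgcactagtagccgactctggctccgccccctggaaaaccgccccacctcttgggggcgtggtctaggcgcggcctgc
The match of Txnrd1 lay 92 bases before 1 of its 3 annotated starts and that of Sod1 56 bases before its start. These letters say nothing of binding, and genes with a match (Txnrd1, Prdx1 and Sod1) had top ratios of 0.59, -0.78 and -0.06, so they did not share a direction.

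For 8 of 10 genes the top ratio rests on 1 probe, and RefSeq lists pseudogenes or close copies of Txn1, Prdx1, Prdx2 and Prdx6, whose part in the probe signals was not tested.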

How the data were processed

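The deposited scanner files hold, per the file headers, linear spot intensity from Agilent Feature Extraction 10.5.1.1 and probe positions on mm8. They also hold the software's log10 ratio of red over green with its error, per the file headers. In the authors' deposited value table, the log2 ratios equalled the software's ratio within 3.53e-06 for probes measured in both channels, which settles scale and direction. Its column medians were -0.09 (top), -0.01 (light) and 0.22 (heavy); whether they were centred further is not stated here. Its ratios enter as the software's ratio.

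Mean signals were corrected with limma 3.58.1 in R 4.3.3 (normexp, offset 50, then loess with control spots at weight 0). Spots with outlier marks (220 top, 170 light, 183 heavy) were left out, spots of a probe averaged, and measured probes of a gene averaged; a probe was measured when at least 50% of its spots were well above background in both channels. No spot was saturated (0 on each array). Differences between fractions used probes measured on both arrays. Ratios of the top, light and heavy arrays had slopes of 0.571, 0.718 and 0.721 on the software's. The spot error covers the spot alone. Control positions used Aquantile scaling. All 10 genes, the extremes of each related list by heavy minus top, and the 5 genes most like any gene past 2-fold were named; members and lists were chosen with earlier results of these data known. The normexp and loess steps were tested on simulated data, with changes placed in brighter probes only. Averaging, differences between fractions and scaling between arrays were not tested in this way.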

Additional observations from a re-analysis of the deposited data

Results flagged for a closer look

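Txn1 had ratios of opposite direction at the ends of the gradient, each larger than its spot error, at -0.89 in the top and 0.47 in the heavy fraction. The difference has 1 array on each side and was not tested.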

How the results depend on the processing

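The 8 alternatives were an offset of 0, plain background subtraction, no loess, the scanner software's ratio, no background filter, bright probes only, the brightest probe per gene and outlier spots kept. Of 320 gene values under them, 290 moved by less than the spot error and 30 by more. Part of the 290 was fixed in advance. The 2 settings on bright probes cannot move a gene with 1 measured probe, nor can kept outlier spots move a gene without them. Leaving out the background filter cannot move a gene whose probes were all measured. A turn of sign was counted only for values past 2-fold, which held for Txn1 in heavy minus top alone, and it kept its sign. Without loess the light median was 0.35 in place of 0.01, and 1 gene (Txnrd1) was past 2-fold higher there in place of 0. With an offset of 0, subtraction or the software's ratio, 1 gene (Prdx5) was past 2-fold lower in the top fraction in place of 0; its value ran from -1.07 to -0.92. Past 1.5-fold, the 1 higher gene of the top fraction became 0 under these 3 settings and without loess. The 1 higher and 1 lower gene of the heavy fraction each became 0 with the software's ratio or no background filter, and the 5 higher genes of heavy minus top became 3 without that filter and 4 with the software's ratio or without loess. In the light fraction 1 gene was higher with an offset of 0 or subtraction and 2 without loess, and 1 was lower with the software's ratio, in place of 0. The share of all genes past a fold moved too. With the software's ratio, 8.5% of all genes in place of 2.52% were past 1.5-fold lower in the top fraction. For heavy minus top 14% in place of 7.37% were then higher, and without the background filter 2.34%. The cause was not tested. Signs were not settled for Sod1 in the top (-0.33 to 0.02), for Prdx2 (-0.26 to 0.31), Prdx3 (-0.02 to 0.23), Prdx4 (-0.14 to 0.16) and Gpx1 (-0.09 to 0.39) in the light fraction, for Prdx4 in the heavy fraction (0.00 to 0.29), and for Prdx3 (-0.20 to 0.13) and Prdx6 (-0.32 to 0.12) in heavy minus top. Eif4g3 in the light fraction was -0.89 without loess. The number of arrays limits the precision. No paired analysis was possible because each fraction has 1 array.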
